A study of Mus musculus with 12 samples.

Results

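The cyclins and inhibitors that set the activity of the G1 cyclin-dependent kinases (CDKs) were examined in the mouse melanoma cell line B16-F10 after transfection with FoxD3-VP16, FoxD3 or empty vector. The genes were the D cyclins Ccnd1, Ccnd2 and Ccnd3, the E cyclins Ccne1 and Ccne2, the CDK inhibitors Cdkn1a, Cdkn1b, Cdkn1c and Cdkn2c, and Cables1. Every probe set that the platform's annotation assigns to one of these symbols was taken, which gave 24 probe sets of 10 genes, of 45037 non-control probe sets on the array. All 10 genes and 23 of the 24 probe sets passed the filter on dim signals. These genes were not chosen by a threshold on measured values, but they were chosen with earlier results of these data known. Their counts and medians beside those of all tested genes are therefore descriptions.

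FoxD3-VP16 cells received a pMES plasmid with a chicken FoxD3 in which the VP16 activation domain, of viral origin, stood in for the C-terminal part with the repression domain. FoxD3 cells received pMES with full-length chicken FoxD3, and empty-vector cells received pMES alone. In all 3 groups the plasmid also made EGFP from the same transcript under the chick beta-actin promoter, EGFP-positive cells were sorted at 24 h, and the cells grew in serum. Each group had 4 arrays, numbered 1 to 4 in the labels. The cells are 1 tumour line taken soon after transient transfection, and whether the numbered samples were separate cultures is not stated, so the p-values reflect how far these samples spread, and that spread may be technical. The array reads transcript levels, so neither protein nor cell cycle position was measured.

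D cyclins bind CDK4 and CDK6, and E cyclins bind CDK2, and the resulting kinases phosphorylate the retinoblastoma protein and its relatives, which frees E2F factors and lets a cell enter S phase. Inhibitors of the Cip/Kip family (Cdkn1a, Cdkn1b, Cdkn1c) bind cyclin-CDK complexes, while those of the INK4 family, such as Cdkn2c, bind CDK4 and CDK6 and keep D cyclins away. Cables1 is an adaptor that links CDKs to the tyrosine kinases Abl1 and Wee1. FoxD3, a transcription factor with a forkhead DNA-binding domain, is expressed in early neural crest cells, from which melanocytes arise.

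The promoters of 3 of the CDK inhibitors are shown because Cdkn1a on the one side and Cdkn1b and Cdkn2c on the other moved in opposite directions between the transfections. Each window runs from 250 bases before to 50 bases after an annotated start, is printed 5′ to 3′ along the gene and comes from RefSeq on GRCm38.p6. Capitals mark a GC box (GGGCGG on either strand) or an E-box (CACGTG). The Cdkn1a windows are chr17:29090729-29091028 on the plus strand, upstream, and chr17:29093519-29093818 on the plus strand, downstream. The Cdkn1b window is chr6:134920151-134920450 on the plus strand. Cdkn2c has chr4:109666707-109667006 upstream and chr4:109665323-109665622 downstream, both on the minus strand.
Cdkn1a, upstream start: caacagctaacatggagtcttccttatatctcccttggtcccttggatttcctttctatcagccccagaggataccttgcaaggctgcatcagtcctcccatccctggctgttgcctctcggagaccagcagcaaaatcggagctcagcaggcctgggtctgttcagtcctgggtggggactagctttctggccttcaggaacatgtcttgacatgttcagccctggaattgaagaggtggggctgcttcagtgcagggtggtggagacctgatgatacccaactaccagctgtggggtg
Cdkn1a, downstream start: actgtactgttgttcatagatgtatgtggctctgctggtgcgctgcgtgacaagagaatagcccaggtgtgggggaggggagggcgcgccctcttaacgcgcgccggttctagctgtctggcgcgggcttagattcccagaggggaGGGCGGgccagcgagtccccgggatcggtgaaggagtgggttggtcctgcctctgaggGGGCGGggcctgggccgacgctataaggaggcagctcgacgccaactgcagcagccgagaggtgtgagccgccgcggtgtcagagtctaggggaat
Cdkn1b: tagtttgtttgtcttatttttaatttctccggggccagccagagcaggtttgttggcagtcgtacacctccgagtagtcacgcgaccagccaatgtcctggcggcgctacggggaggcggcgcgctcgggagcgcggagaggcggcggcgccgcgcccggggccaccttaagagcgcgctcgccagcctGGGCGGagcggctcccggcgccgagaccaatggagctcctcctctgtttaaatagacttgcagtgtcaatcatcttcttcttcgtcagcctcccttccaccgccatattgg
Cdkn2c, upstream start: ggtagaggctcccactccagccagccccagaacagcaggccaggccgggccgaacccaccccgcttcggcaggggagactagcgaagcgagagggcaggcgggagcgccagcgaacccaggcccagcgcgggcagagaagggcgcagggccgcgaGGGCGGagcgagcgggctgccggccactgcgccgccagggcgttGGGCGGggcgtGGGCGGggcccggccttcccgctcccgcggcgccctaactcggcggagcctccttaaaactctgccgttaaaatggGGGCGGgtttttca
Cdkn2c, downstream start: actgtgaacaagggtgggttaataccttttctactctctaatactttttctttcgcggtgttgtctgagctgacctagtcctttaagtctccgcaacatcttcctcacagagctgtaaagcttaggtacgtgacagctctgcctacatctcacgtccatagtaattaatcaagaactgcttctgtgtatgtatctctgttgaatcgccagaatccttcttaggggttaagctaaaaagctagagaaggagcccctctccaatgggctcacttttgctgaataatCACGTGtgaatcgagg

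The downstream Cdkn1a window held 2 GC boxes and the upstream one none of the motifs searched. Cdkn1b held 1 GC box, the upstream Cdkn2c window 4, and the downstream Cdkn2c window 1 E-box, 34 bases past the start. A GC box stood in 35.7% and the E-box in 7.15% of 32851 promoter windows of the same length. The forkhead core, searched as TGTTTAC or TGTTTGC and found in 8.48% of all windows, matched none of these 5 windows. Other spellings of a forkhead site were not searched, so their absence is not shown. The windows searched for the genes studied were 8, of 5 of the 10 genes. No window of Ccnd1, Ccnd2, Ccne2, Cdkn1c or Cables1 was searched, so the motif cannot be set against their calls. The forkhead core matched 1 of the 8, at offset -243 from the upstream start of Ccnd3, a D cyclin called in no comparison, with or without a block. The E2F motif (TTTCGCGC or TTTGGCGC), the CRE (TGACGTCA), the AP-1 motif (TGACTCA) and the TATA box (TATAAA) were in 0.813%, 1.79%, 5.2% and 13.6% of all windows and in none of the 8. Both strands were searched, and a match or its absence describes only the letters of these windows.

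Levels are given as log2(intensity + 16) after quantile normalization, and differences between groups are on the same scale, where the added 16 makes changes of dim genes look smaller. A gene is represented by its brightest probe set unless another is named, and levels of different genes are not comparable, since each probe set has its own response. A gene was called changed when its limma p-value, adjusted by Benjamini-Hochberg over 10916 genes, was under 0.05. The replicate numbers were taken to pair the arrays, though correlations between arrays did not tell numbers 3 and 4 apart. Where a fit with the number as a block alters a call, its adjusted p is printed too. The 2 comparisons with empty vector use the same 4 empty-vector arrays, and the third uses the same FoxD3-VP16 and FoxD3 arrays, so their results are not independent.

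The arrays numbered 1 stood apart from the rest before any gene was considered: their 18S rRNA probe sets averaged 12.9 against at most 9.95 for numbers 2 to 4, and Gapdh read 0.66 higher at its 3′ than at its 5′ probe set, against -0.18 to -0.01. Melanocytic markers were bright on every array, with lowest deposited intensities of 27882 for Dct, 17682 for Pmel and 22153 for Mlana. The lowest were 23099 for Tyrp1, 4663 for Tyr, 3535 for Mitf and 3492 for Sox10. Of these 7, FoxD3 against empty vector called 1 higher and 1 lower without a block, beside 2.89% and 1.12% of all tested genes. With the replicate block it called 1 higher and 3 lower, beside 11.8% and 9.21%. FoxD3-VP16 against empty vector called 0 higher and 1 lower, beside 0.522% and 0.0733%. With the block it called 1 higher and 3 lower, beside 5.73% and 5.41%. Of 8 fibroblast markers 4 were bright enough to test. The intensity summed over all 8 markers was 809 to 1153 with FoxD3-VP16, 1114 to 1397 with FoxD3 and 431 to 615 with empty vector, no marker was at 0, and the highest values of Col3a1, Dcn, Lum and Thy1 were between 38.7 and 77.0. Of these markers Pdgfrb rose with FoxD3 (log2 change 1.84, adjusted p = 0.00237) and with FoxD3-VP16 (1.60, adjusted p = 0.0240), and Col1a1 rose with FoxD3 (2.68, adjusted p = 0.0102). Deposited intensities of Col1a1 ran from 5.30 to 437 over the arrays, so the size of its change rests in part on dim values. Of the 4 tested fibroblast markers, the replicate block called 3 higher with FoxD3 and 1 with FoxD3-VP16, each against empty vector. The sums were thus higher in the FoxD3 group, where Ccnd1 rose, and in the FoxD3-VP16 group, where Cables1 rose, than with empty vector, and their part in those results was not tested. Summed over the lists, the highest array reached 427 for 7 leukocyte, 328 for 7 endothelial and 472 for 6 keratinocyte markers.

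With FoxD3 set against empty vector, 1 of the 10 genes was called higher and none lower, against 2.89% of all tested genes called higher and 1.12% called lower. The gene was Ccnd1. At an unadjusted limma p under 0.05, 4 of the 10 were higher and 1 lower, where 9.39% of all tested genes were higher and 6.75% lower. With the replicate block 4 were called higher (Ccnd1, Ccnd2, Cdkn1a, Cables1) and 2 lower (Cdkn1b, Cdkn2c), where 11.8% of all tested genes were called higher and 9.21% lower. The median log2 change was 0.46 over the 10 genes and -0.00410 over all tested genes.

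With FoxD3-VP16 set against empty vector, again 1 of the 10 genes was called higher and none lower, beside backgrounds of 0.522% and 0.0733%. Here the gene was Cables1. At an unadjusted limma p under 0.05, 2 of the 10 were higher and 2 lower, where 5.51% of all tested genes were higher and 4.84% lower. The replicate block called Cables1 and Cdkn2c higher and Ccnd1 and Cdkn1a lower, beside backgrounds of 5.73% higher and 5.41% lower. The 10 genes had a median log2 change of 0.0460, and all tested genes one of -0.0193.

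FoxD3-VP16 set directly against FoxD3 gave 4 calls: Cdkn1b and Cdkn2c were higher, where 4.44% of tested genes were, and Ccnd1 and Cdkn1a were lower, where 5.13% were. The replicate block added Ccnd2 to the lower genes, for 2 higher and 3 lower, beside backgrounds of 14.6% and 17.5%. Here the median log2 change was -0.31 over the 10 genes and -0.0273 over all tested genes. Without the 3 arrays numbered 1, the counts without a block were 1, 1 and 4 in the 3 comparisons. Of 10916 tested genes, that setting called 870, 277 and 1815. In the last comparison Ccnd2 replaced Cdkn1b among the calls.

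**Figure D1:**
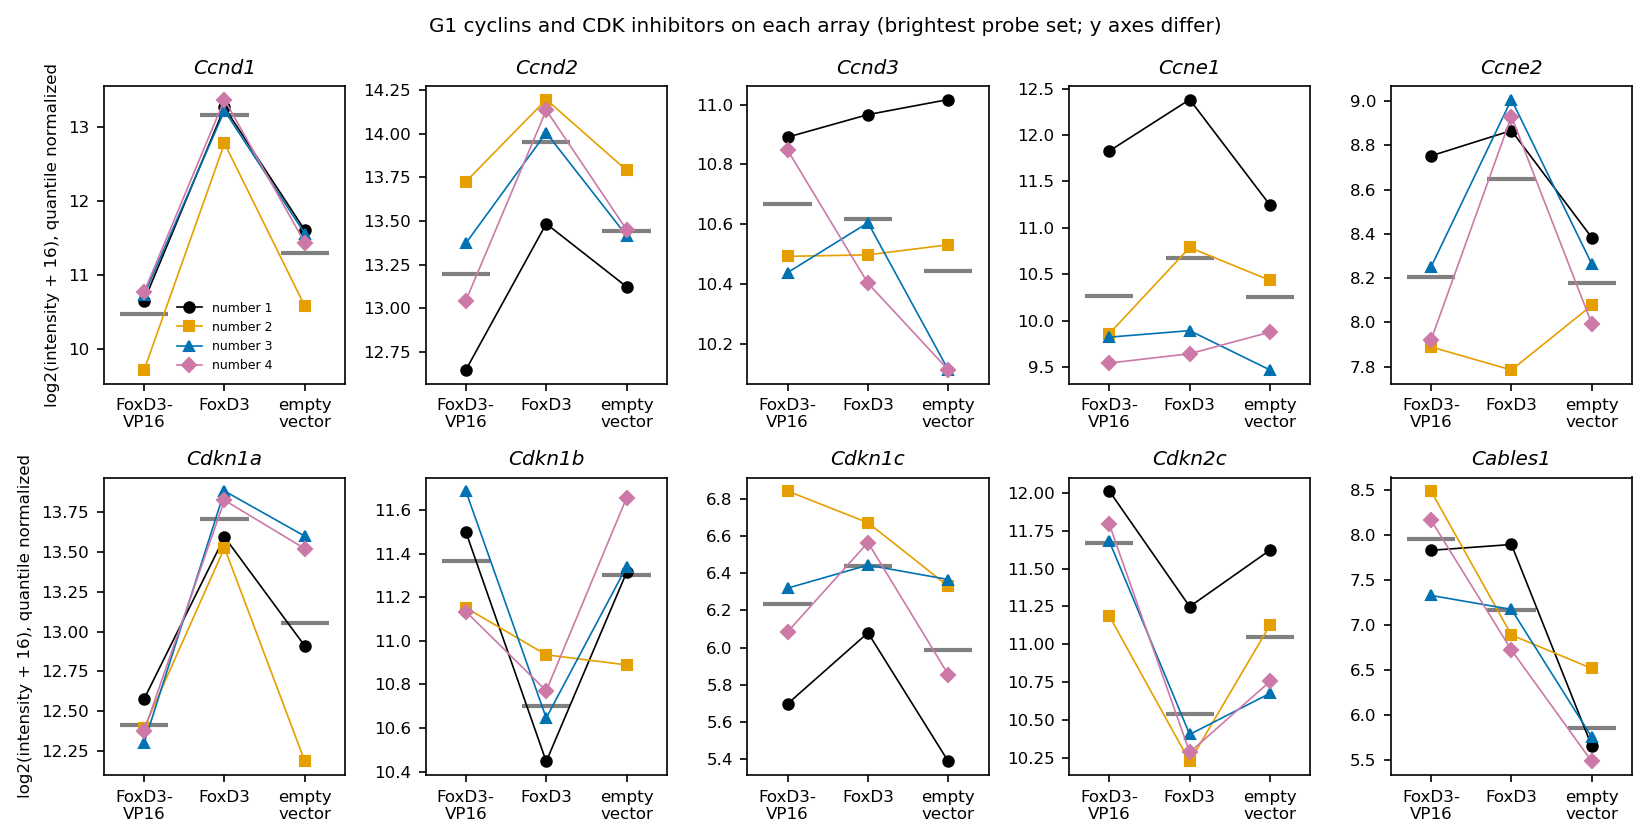
Level of each gene on each array, as log2(intensity + 16) after quantile normalization (vertical axis, its range set per gene), for FoxD3-VP16, FoxD3 and empty vector (horizontal axis). Each line joins the 3 arrays of 1 replicate number and grey bars are group means of 4 arrays; all 4 Ccnd1 lines peak at FoxD3, while the Ccne1 line of number 1 lies above the others in every group.

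Ccnd1, which encodes cyclin D1, the D cyclin most often amplified in human cancers, had the largest difference of the 10 genes. Its levels on arrays 1 to 4 were 10.65, 9.72, 10.74 and 10.77 with FoxD3-VP16, 13.26, 12.77, 13.21 and 13.36 with FoxD3, and 11.60, 10.58, 11.56 and 11.43 with empty vector. The 4 FoxD3 arrays lay above all 8 others, and in each group array 2 was the lowest. FoxD3-VP16 and empty-vector arrays overlapped, through array 2 of empty vector, but within each number the FoxD3-VP16 array was the lower.

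Group means of Ccnd1 were 10.47 ± 0.50 with FoxD3-VP16, 13.15 ± 0.26 with FoxD3 and 11.29 ± 0.48 with empty vector (SD, n = 4 each). FoxD3 raised it by 1.86 (SE 0.27, 3.63-fold, adjusted p = 0.00189) over empty vector. FoxD3-VP16 cells had 6.41-fold less of it than FoxD3 cells (log2 change -2.68, adjusted p = 9.14e-05). Both calls held under all 21 alternatives. In these sorted bulk samples, more cells with a transcript and more transcript per cell cannot be told apart, for Ccnd1 or any other gene here.

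The difference between FoxD3-VP16 and empty vector was smaller for Ccnd1, and its call depended on the pairing. The log2 change was -0.82 with adjusted p = 0.271 without a block and 0.000416 with the replicate block. The 4 differences within a number were -0.95, -0.86, -0.82 and -0.66, all negative and close together. Vector accounted for 90.1% of the variance of Ccnd1 over the 12 arrays and the remainder, beside replicate number, for 0.866%, whereas over all tested genes number took 50.1% and vector 30.8%.

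A second Ccnd1 probe set, 1417420_at, was 2.01 higher with FoxD3 than with empty vector (adjusted p = 0.000797 over 27022 probe sets) and lower with FoxD3-VP16 than with FoxD3, by a log2 change of -2.63 (adjusted p = 6.1e-05). The third, 1417419_at, had log2 changes of 1.46 and -1.77 in these comparisons (adjusted p = 0.224 and 0.0635, with the replicate block 0.000275 and 2.38e-05). On it the arrays numbered 1 were the lowest of each group, at 7.23 with FoxD3-VP16, 9.16 with FoxD3 and 7.93 with empty vector. All 3 probe sets were lower with FoxD3-VP16 than with empty vector, by log2 changes of -0.82, -0.62 and -0.32, none of them called without a block. The replicate block called the brightest, 1448698_at (adjusted p = 0.000576 over probe sets), and 1417420_at (adjusted p = 0.00485), but not 1417419_at (adjusted p = 0.386).

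Ccnd2, which encodes cyclin D2, is read by 7 probe sets and moved less than Ccnd1. The brightest gave 12.65, 13.72, 13.37 and 13.04 with FoxD3-VP16, 13.48, 14.19, 14.00 and 14.13 with FoxD3, and 13.12, 13.79, 13.42 and 13.45 with empty vector. The groups overlapped, but within every number FoxD3 was the highest of the 3 and FoxD3-VP16 the lowest. Number accounted for 43.4% of its variance and vector for 50.5%.

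FoxD3 over empty vector gave a log2 change of 0.51 for Ccnd2 (adjusted p = 0.290, with the replicate block 0.00155). FoxD3-VP16 against FoxD3 gave -0.76 (adjusted p = 0.0547, with the replicate block 4.35e-05), and FoxD3-VP16 against empty vector gave -0.25 (adjusted p = 0.835). All 7 probe sets were lower with FoxD3-VP16 than with FoxD3, by log2 changes of -0.94 to -0.66. Of these 7, 1430127_a_at was called without a block (-0.90, adjusted p = 0.0227) and all 7 with it. All 7 were also higher with FoxD3 than with empty vector, by 0.40 to 0.85, none of them called without a block and 6 with it.

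Ccnd3, encoding cyclin D3, did not pass the test in any comparison. Its means were 10.67 ± 0.24 with FoxD3-VP16, 10.62 ± 0.25 with FoxD3 and 10.44 ± 0.43 with empty vector (SD, n = 4 each). The 95% interval of its change with FoxD3 ran from -0.29 to 0.64, and that with FoxD3-VP16 from -0.24 to 0.69, each against empty vector. Replicate number took 59.7% of its variance and vector 10.9%. The other 2 probe sets were not called either.

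**Figure D2:**
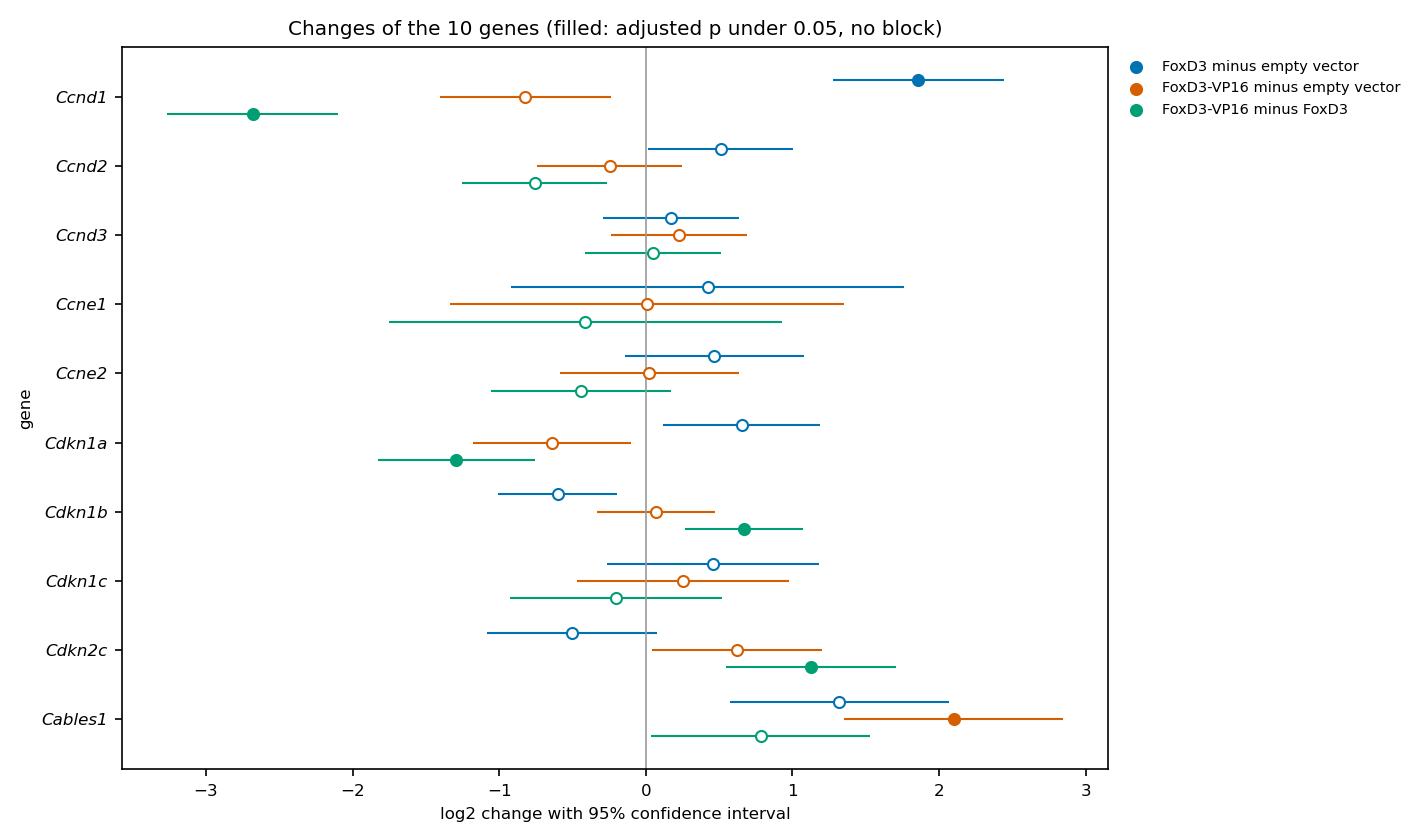
Log2 change of each gene (horizontal axis) with its 95% confidence interval from the limma fit without a block, for the 3 comparisons, by gene (vertical axis). Filled points passed an adjusted p of 0.05: Ccnd1 for FoxD3 minus empty vector, Cables1 for FoxD3-VP16 minus empty vector, and Ccnd1, Cdkn1a, Cdkn1b and Cdkn2c for FoxD3-VP16 minus FoxD3.

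For Ccne1, which encodes cyclin E1, the 2 probe sets gave different pictures. The brighter, 1441910_x_at, had 11.83, 9.86, 9.82 and 9.54 with FoxD3-VP16, 12.38, 10.79, 9.89 and 9.64 with FoxD3, and 11.24, 10.43, 9.47 and 9.88 with empty vector. Array 1 was the highest of each group, number took 87.7% of the variance and vector 4.57%, and no comparison was called. The suffix _x_at marks a probe set with some probes that also match other transcripts.

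The other Ccne1 probe set, 1416492_at, had 7.98, 8.60, 8.62 and 8.81 with FoxD3-VP16, 10.1, 9.56, 9.67 and 9.78 with FoxD3, and 9.30, 8.89, 8.47 and 8.68 with empty vector. The 4 FoxD3 arrays lay above all others, and the means by number ran only from 8.92 to 9.11. FoxD3-VP16 was 2.41-fold lower than FoxD3 (log2 change -1.27, adjusted p = 0.00544). FoxD3 was 0.93 higher than empty vector (adjusted p = 0.0595, with the replicate block 0.0121). Ccne1 was thus called lower with FoxD3-VP16 than with FoxD3 when _x_at probe sets were left out (adjusted p = 0.00315) and under no other alternative (main value 0.777). Leaving them out also called Ccne1 higher with FoxD3 than with empty vector in the fit over genes (log2 change 0.93, adjusted p = 0.0342).

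Ccne2, encoding cyclin E2, has 1 probe set, and no comparison was called. It averaged 8.20 ± 0.40 with FoxD3-VP16, 8.65 ± 0.58 with FoxD3 and 8.18 ± 0.18 with empty vector (SD, n = 4 each). FoxD3 array 2, at 7.79, was far below the other 3 FoxD3 arrays, which read 8.87 to 9.01.

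**Figure D3:**
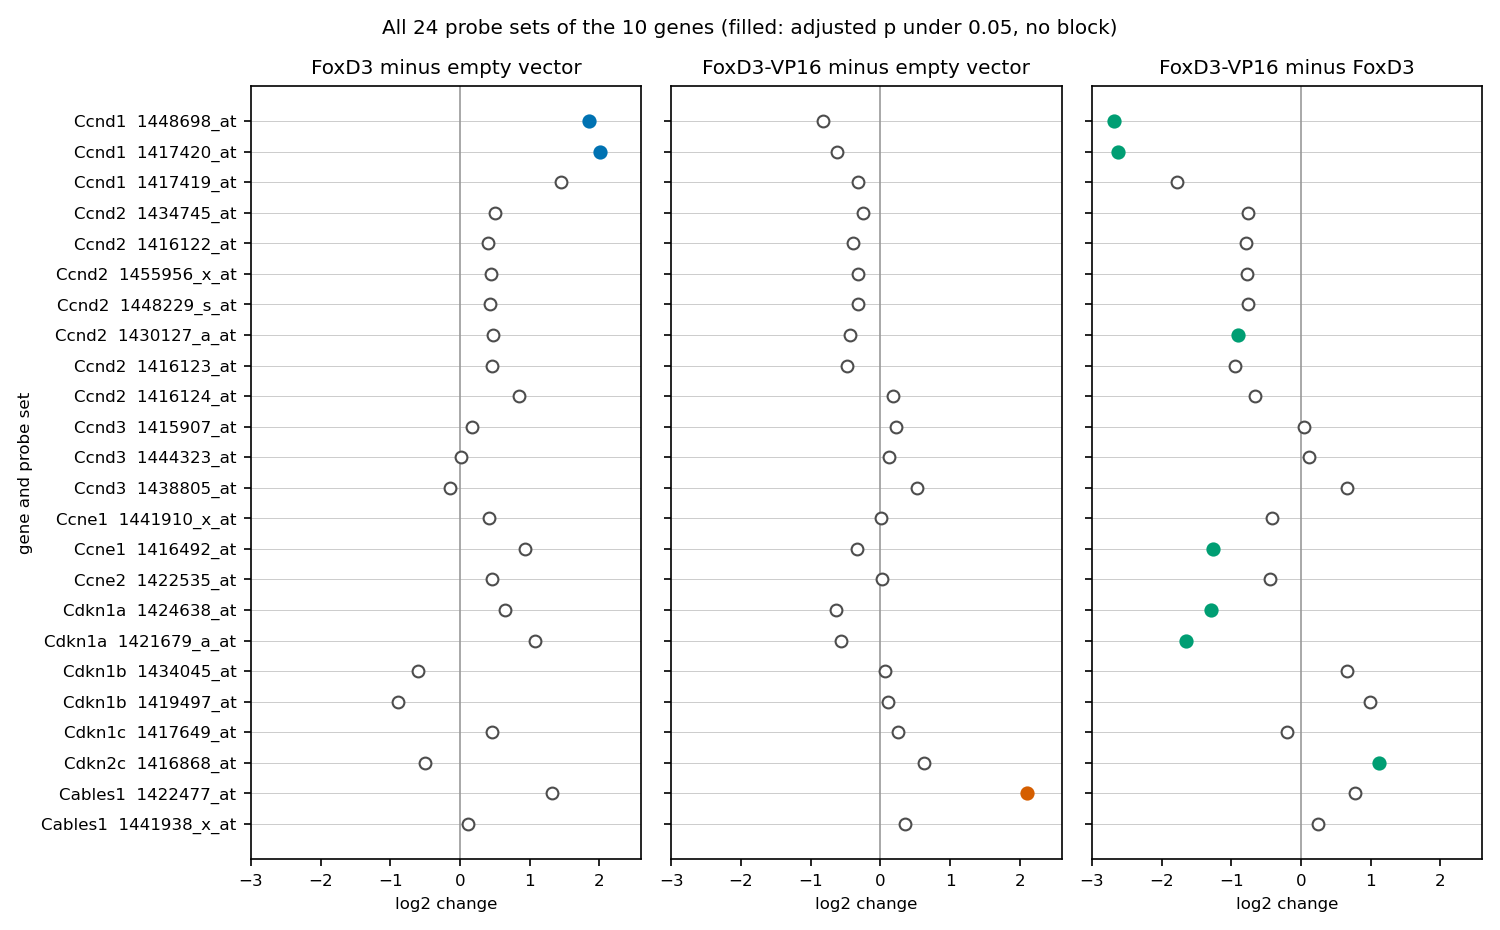
Log2 change of each of the 24 probe sets (vertical axis, grouped by gene, brightest first) in the 3 comparisons (horizontal axis). Filled points passed an adjusted p of 0.05 over all 27022 probe sets tested; the 3 Ccnd1 and 7 Ccnd2 probe sets lie to the left of 0 for FoxD3-VP16 minus FoxD3.

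In the fit over probe sets, 2 of the 23 tested were called for FoxD3 minus empty vector, 1 for FoxD3-VP16 minus empty vector and 7 for FoxD3-VP16 minus FoxD3. Of all probe sets, 1.86%, 0.229% and 5.6% were called in these comparisons. Probe sets of 1 gene read the same transcripts and are not independent of each other.

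Cdkn1a encodes a Cip/Kip inhibitor that cells induce under stress and on differentiation. Its levels were 12.58, 12.39, 12.30 and 12.38 with FoxD3-VP16, 13.59, 13.52, 13.88 and 13.82 with FoxD3, and 12.91, 12.19, 13.60 and 13.52 with empty vector. FoxD3-VP16 arrays kept within a narrow band (SD 0.12) below every FoxD3 array, while the empty-vector arrays ranged across both groups (SD 0.65), with array 2 the lowest of all 12.

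FoxD3-VP16 cells had 2.45-fold less Cdkn1a than FoxD3 cells (log2 change -1.29, SE 0.25, adjusted p = 0.00542), a call that held under all 21 alternatives. Against empty vector the changes were -0.64 with FoxD3-VP16 (adjusted p = 0.369, with the replicate block 0.0399) and 0.65 with FoxD3 (adjusted p = 0.197, with the replicate block 0.0225). Within number 2 the FoxD3-VP16 array was 0.21 above its empty-vector array, against -0.33, -1.30 and -1.14 in the other numbers. Cdkn1a was thus highest with FoxD3 in all 4 numbers. The second probe set, 1421679_a_at, was also called lower with FoxD3-VP16 than with FoxD3 (log2 change -1.64, adjusted p = 0.00628). In the fit over probe sets, the replicate block called neither probe set for FoxD3-VP16 against empty vector (adjusted p = 0.0567 for 1424638_at and 0.253 for 1421679_a_at). For FoxD3 against empty vector it called both (adjusted p = 0.0320 and 0.019).

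Cdkn1b, the Cip/Kip inhibitor that holds back CDK2 in resting cells, ran the other way. Its levels were 11.50, 11.15, 11.69 and 11.13 with FoxD3-VP16, 10.45, 10.94, 10.65 and 10.77 with FoxD3, and 11.31, 10.89, 11.34 and 11.66 with empty vector. All 4 FoxD3 arrays lay below all 4 FoxD3-VP16 arrays, and 1 of them, array 2, lay above its empty-vector counterpart.

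FoxD3-VP16 cells had 1.59-fold more Cdkn1b than FoxD3 cells (log2 change 0.67, adjusted p = 0.0399). In the fit over probe sets its adjusted p was 0.0556, with the replicate block 0.00905. The gene's call was lost when any of arrays 1, 3 and 4 of FoxD3-VP16 or FoxD3, or array 3 of empty vector, was left out (adjusted p 0.0524 to 0.127), and without all arrays numbered 1 (0.106). It was also lost with no filter on dim genes (0.0536) and with the mean of both probe sets (0.0567). These losses were in fits without a block. With the replicate block the call had adjusted p = 0.0067 and was lost under 1 of 20 alternatives. Against empty vector, FoxD3 gave -0.60 (adjusted p = 0.101, with the replicate block 0.0189) and FoxD3-VP16 gave 0.07 (adjusted p = 0.970). The second Cdkn1b probe set, 1419497_at, near the brightness limit, had a log2 change of 0.99 between FoxD3-VP16 and FoxD3 (adjusted p = 0.219, with the replicate block 0.0320).

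Cdkn2c encodes an INK4 inhibitor of CDK4 and CDK6. It had 12.01, 11.19, 11.68 and 11.79 with FoxD3-VP16, 11.25, 10.22, 10.40 and 10.28 with FoxD3, and 11.62, 11.13, 10.68 and 10.75 with empty vector. The groups overlapped, but in each of the 4 numbers FoxD3-VP16 was the highest and FoxD3 the lowest. FoxD3-VP16 cells had 2.19-fold more than FoxD3 cells (log2 change 1.13, SE 0.27, adjusted p = 0.0185).

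Without a block, that Cdkn2c call was lost when array 3 or 4 of FoxD3-VP16 or of FoxD3 was left out (adjusted p 0.0517 to 0.0660). The log2 change stayed between 1.01 and 1.36 under all 21 alternatives. With the replicate block the call had adjusted p = 8.8e-05 and was lost under 0 of 20 alternatives. Against empty vector FoxD3-VP16 gave 0.62 (adjusted p = 0.435, with the replicate block 0.0179) and FoxD3 gave -0.50 (adjusted p = 0.395, with the replicate block 0.0261).

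Cdkn1c, the third Cip/Kip inhibitor and an imprinted gene, was dim and no comparison was called. It averaged 6.24 ± 0.48 with FoxD3-VP16, 6.44 ± 0.26 with FoxD3 and 5.98 ± 0.46 with empty vector (SD, n = 4 each), close to the brightness limit of 5.98. Its 95% intervals against empty vector were -0.47 to 0.97 for FoxD3-VP16 and -0.27 to 1.18 for FoxD3.

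Cables1 had the largest change of the 10 genes between FoxD3-VP16 and empty vector. Its levels were 7.83, 8.49, 7.33 and 8.17 with FoxD3-VP16, 7.90, 6.89, 7.18 and 6.72 with FoxD3, and 5.66, 6.52, 5.76 and 5.49 with empty vector. The empty-vector arrays lay below all others, and 3 of these 4 were under the brightness limit. FoxD3-VP16 and FoxD3 arrays overlapped, in number 1 at nearly the same level (7.83 with FoxD3-VP16 and 7.90 with FoxD3).

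Cables1 was called higher with FoxD3-VP16 than with empty vector (log2 change 2.10, SE 0.35, adjusted p = 0.0192). Its empty-vector mean, 5.85, lay under the brightness limit of 5.98, so it passed the filter through the other groups, and with no filter its adjusted p was 0.0295. No fold is given, since the size rests on the dim empty-vector values: the log2 change was 2.48 with a pseudocount of 1 and 1.47 with one of 64, called with each. FoxD3 was 1.32 above empty vector (adjusted p = 0.0526, with the replicate block 0.0104), and FoxD3-VP16 was 0.78 above FoxD3 (adjusted p = 0.192, with the replicate block 0.0759). The call for FoxD3-VP16 was lost when array 2 or 4 of FoxD3-VP16 or array 3 or 4 of empty vector was left out (adjusted p 0.0544 to 0.0968). It was also lost when the mean of both probe sets was used (log2 change 1.23, adjusted p = 0.170). These losses were in fits without a block. With the replicate block the call had adjusted p = 0.00159 and was lost under 0 of 20 alternatives (highest adjusted p 0.0342). The other probe set, 1441938_x_at, was too dim to test and had log2 changes of 0.35 with FoxD3-VP16 and 0.11 with FoxD3 over empty vector.

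**Figure D4:**
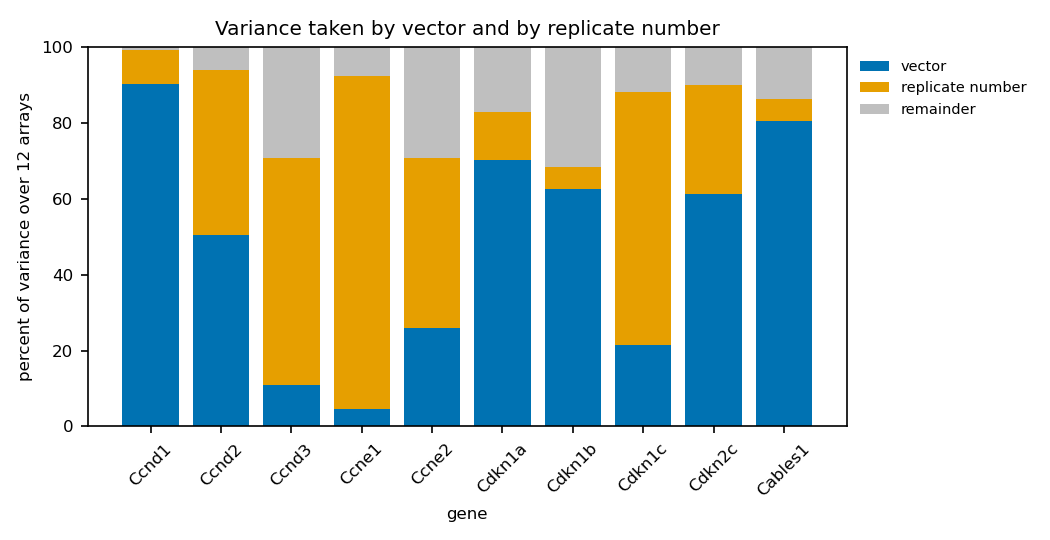
Share of each gene's variance over the 12 arrays (vertical axis, percent) taken by vector, by replicate number and by the remainder, for the 10 genes (horizontal axis). Vector takes 90.1% for Ccnd1 and 80.6% for Cables1, while number takes 87.7% for Ccne1 and 66.6% for Cdkn1c.

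The order of the groups differed between genes. Ccnd1, Ccnd2 and Cdkn1a had their highest mean with FoxD3 and their lowest with FoxD3-VP16. Cdkn2c was highest with FoxD3-VP16 and lowest with FoxD3, and Cables1 was highest with FoxD3-VP16 and lowest with empty vector. For Cdkn1b, FoxD3 was lowest and the other groups differed by less than their spread. Without a block, FoxD3-VP16 and empty vector were not separated for Ccnd1, no neighbouring groups were separated for Cdkn1a and Cdkn2c, and for Cables1 neither FoxD3-VP16 from FoxD3 nor FoxD3 from empty vector was. For Ccnd2, Ccnd3, Ccne1, Ccne2 and Cdkn1c the brightest probe set separated no pair of groups without a block. With it, Ccnd2 was separated between FoxD3 and each of the other groups. Less bright probe sets of Ccne1 (1416492_at) and Ccnd2 (1430127_a_at) did separate FoxD3-VP16 from FoxD3 without a block (adjusted p = 0.00544 and 0.0227).

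The genes whose pattern was most like that of 3 of these genes were found by Pearson's correlation over the 12 arrays after the mean of each number was removed. For Ccnd1 they were Pdxk, Hes1 and Zfp36 (r = 0.99 each), with log2 changes between FoxD3-VP16 and FoxD3 of -1.21, -1.48 and -1.73. For Cdkn1a they were Socs5, Klf10 and Noct (r = 0.98 each), with changes of -1.09, -2.31 and -0.97. For Cables1 they were Dnajb6, Rassf3 and Mtarc2 (r = 0.96, 0.96 and 0.95), with changes between FoxD3-VP16 and empty vector of 0.35, 0.42 and 0.29, all smaller than the 2.10 of Cables1. These genes were picked as the most alike among all tested genes, and arrays share vector and number, so r is a description.

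Calls among other genes of the G1 machinery are without a block unless it is named, and for FoxD3-VP16 against FoxD3 they stand beside 4.44% of all tested genes called higher and 5.13% called lower. With the replicate block these shares were 14.6% and 17.5%. The block called 5.73% higher and 5.41% lower for FoxD3-VP16 against empty vector, and 11.8% higher and 9.21% lower for FoxD3 against empty vector. Of 8 CDKs of G1 and their activators, Cdk6, the partner of the D cyclins, was higher with FoxD3-VP16 than with FoxD3 (log2 change 0.92, adjusted p = 0.00858), and its arrays did not overlap. No gene of this list was called by limma without a block in either comparison with empty vector, where 0 passed an unadjusted p under 0.05 with FoxD3 and 2 did with FoxD3-VP16. The list's median change between FoxD3-VP16 and FoxD3 was 0.0346, beside -0.0273 over all tested genes. The replicate block gave more calls: 2 of the 8 were called higher and 2 lower in that comparison, 1 higher and 1 lower for FoxD3-VP16 against empty vector, and none for FoxD3 against empty vector. Cdk4 had changes of 0.14 between FoxD3-VP16 and FoxD3, 0.06 with FoxD3-VP16 and -0.08 with FoxD3 over empty vector, with none called. For Cdk2, partner of the E cyclins, FoxD3-VP16 gave -0.39 against FoxD3 (adjusted p = 0.303, with the replicate block 0.000560) and -0.54 against empty vector (adjusted p = 0.367, with the replicate block 0.000335).

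Of 13 pocket proteins and E2F factors, FoxD3-VP16 against FoxD3 called 1 higher and 1 lower, and both are partners of E2F proteins on DNA. Tfdp2 rose 2.25-fold (log2 change 1.17, adjusted p = 0.000614) and Tfdp1 fell by 0.58 (adjusted p = 0.0241). No gene of this list was called by limma against empty vector without a block, where 1 passed an unadjusted p under 0.05 with FoxD3-VP16 and 2 with FoxD3. The list's median change between FoxD3-VP16 and FoxD3 was 0.0841. With the replicate block that comparison called 1 of the 13 higher and 2 lower, FoxD3-VP16 against empty vector 1 higher and 1 lower, and FoxD3 against empty vector 1 higher and 2 lower. Rb1, the retinoblastoma gene, changed by 0.38 between FoxD3-VP16 and FoxD3 (adjusted p = 0.396), and E2f1 by 0.37 (adjusted p = 0.597).

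Of 14 genes that act in the turnover of G1 cyclins and CDK inhibitors, 1 was called without a block: Skp2, the F-box protein that marks the Cdkn1b protein for degradation, was higher with FoxD3-VP16 than with FoxD3 (log2 change 0.49, adjusted p = 0.0473). Against empty vector it had -0.45 with FoxD3 (adjusted p = 0.109, with the replicate block 0.0167) and 0.04 with FoxD3-VP16. Of the 14 genes, the replicate block called 2 higher with FoxD3-VP16 than with FoxD3, 1 higher with FoxD3-VP16 than with empty vector, and 4 lower with FoxD3 than with empty vector. Of 15 measured E2F target genes of S phase, 1 was called without a block: Cdt1, which licenses replication origins, was lower with FoxD3-VP16 than with FoxD3 (log2 change -0.70, adjusted p = 0.0277). In that comparison the median change was 0.0618 over the turnover genes and 0.0659 over these E2F targets. Of the 15 genes, the replicate block called 2 higher and 1 lower with FoxD3-VP16 than with FoxD3, 1 lower with FoxD3-VP16 than with empty vector, and 1 higher and 2 lower with FoxD3 than with empty vector. None of 9 measured cyclins and kinases of G2 and M, and none of 10 tested other cyclins, was called by limma without a block in any comparison. At an unadjusted p under 0.05, where FoxD3-VP16 against FoxD3 had 10.5% of all tested genes higher and 12.6% lower, 1 of the 9 was lower with FoxD3-VP16 than with FoxD3, and of the 10 other cyclins 1 was lower with FoxD3-VP16 than with FoxD3 and 1 than with empty vector. Median changes between FoxD3-VP16 and FoxD3 were 0.0987 over the 9 and -0.0999 over the 10. With the replicate block that comparison called 1 of the 9 lower, and of the 10 it called 1 higher and 2 lower. FoxD3-VP16 against empty vector then called 1 of the 10 higher and 1 lower.

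Neither of the 2 tested inhibitors outside the 10 genes, Cdkn2d and Cdkn3, was called by limma without a block. At an unadjusted p under 0.05, 1 of them was higher with FoxD3 than with empty vector and 1 lower with FoxD3-VP16 than with FoxD3. With it Cdkn2d was lower with FoxD3-VP16 than with FoxD3 (log2 change -0.53, adjusted p = 0.105, with the replicate block 0.0112). The INK4 genes Cdkn2a and Cdkn2b were too dim to test, averaging 4.45 and 4.70 with FoxD3-VP16, 4.49 and 4.54 with FoxD3, and 4.56 and 4.76 with empty vector.

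Of 5 tested partners and paralogs of Cables1, Abl1, the tyrosine kinase that Cables1 binds, was the one called without a block, higher with FoxD3-VP16 than with FoxD3 (log2 change 0.89, adjusted p = 0.00299). When blocked by replicate number, 1 of the 5 was called higher and 2 lower in that comparison, 2 higher with FoxD3-VP16 than with empty vector, and 1 higher and 1 lower with FoxD3 than with empty vector. The paralog Cables2 was not called without a block, with -0.84 between FoxD3-VP16 and FoxD3 (adjusted p = 0.0600, with the replicate block 0.0174) and 0.88 between FoxD3 and empty vector (adjusted p = 0.0818, with the replicate block 0.0201).

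Of 16 tested transcription factors known to act on D cyclins or CDK inhibitors, FoxD3 against empty vector called 1 higher and 2 lower without a block. Beside them, 2.89% of all tested genes were called higher and 1.12% lower. Fosl2, a Fos-family component of AP-1, rose (log2 change 1.21, adjusted p = 0.0242), while Klf6, a zinc finger factor known to activate Cdkn1a, fell (-1.72, adjusted p = 0.00295). Mitf, the melanocyte regulator also known to activate Cdkn1a, fell too (-1.09, adjusted p = 0.00483). FoxD3-VP16 against FoxD3 called Mitf (0.66, adjusted p = 0.0389) and Tcf7l2 (0.66, adjusted p = 0.0383), the DNA-binding partner of beta-catenin, higher. In that comparison Fosl2 (-1.55, adjusted p = 0.00273) and Jun (-1.48, adjusted p = 0.0216), another part of AP-1, were lower. When blocked by replicate number, 4 of the 16 were called higher and 4 lower for FoxD3-VP16 against FoxD3, beside 14.6% and 17.5% of all tested genes. For FoxD3-VP16 against empty vector 1 was higher and 4 lower, beside 5.73% and 5.41%. For FoxD3 against empty vector 4 were higher and 4 lower, beside 11.8% and 9.21%. Myc was not called without a block, with -0.77 for FoxD3-VP16 (adjusted p = 0.286, with the replicate block 0.00707) and -0.61 for FoxD3 (adjusted p = 0.251, with the replicate block 0.0110) against empty vector.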

How the data were processed

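The authors deposited 1 linear intensity per probe set and array, for 45101 probe sets on 12 single-colour arrays, 4 per transfection. Per the submitters' processing notes these came from MAS5, whose version is not given there, and per the labels the data were analysed in dChip. After trimming 2% at each end, array means are 500.0029 to 500.0035. Groups and replicate numbers come from the sample titles.

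Intensities were taken to log2(intensity + 16) and quantile normalized, since array medians spanned 0.79. The 64 control probe sets were left out. Of the rest, 34945 had 1 symbol in the platform's annotation, 932 had several and 9160 had none. The brightest probe set stood for each of 18193 genes, and the dimmest 40% (mean log2 below 5.98) were left out, leaving 10916. All 12 arrays were fitted together with limma 3.58.1 in R 4.3.3 (lmFit, contrasts.fit, eBayes with trend), with 9 residual and 3.98 prior degrees of freedom, and p-values were adjusted by Benjamini-Hochberg. A second fit covered 27022 probe sets above a log2 mean of 5.60. The calculation without a block was tested on simulated data, in which arrays of the same number shared no effect. Plots used matplotlib 3.10.9 in Python 3.11.15.

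The replicate numbers are shared by the groups. Across genes, deviations from group means had correlations of 0.369 to 0.672 for 12 same-number pairs, of 0.37 to 0.536 for 6 pairs of a number 3 with a number 4 array, and of -0.511 to 0.118 for the 30 remaining pairs of different groups, so the numbers were taken to pair the samples. The labels do not say what a number shares, and these correlations do not tell numbers 3 and 4 apart. Adding the number to the model as a block (6 residual and 7.30 prior degrees of freedom) gave a further fit, printed beside results whose call it changes.

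The genes, lists and tests were chosen with earlier results of these data known, so no test over a list is given. All 10 genes were named, with up to 4 called genes of each other list per comparison and the 3 genes most alike in pattern to Ccnd1, Cdkn1a and Cables1. A fixed set of regulators was to be named too, among them Cdk2, Cdk4, Rb1, E2f1, Cdkn2a and Myc. Trp53, also in that set, is not given here, and Rb1 and E2f1 are given for FoxD3-VP16 against FoxD3 only. Of the other genes, Cdkn2b, Cdkn2d, Cdkn3 and Cables2 were named after their values were seen. Listed genes without a symbol in the annotation, and the transfected chicken transcripts, were not analysed here. No column of another series was present. The number of arrays limits the precision.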

Additional observations from a re-analysis of the deposited data

Results flagged for a closer look

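In 4 of the 30 sets of 4 arrays (10 genes in 3 groups), 1 array stood far from the other 3 of its group, with a gap to the nearest that passed Dixon's 95% limit for 4 samples. Chance flags about 1 in 20 groups. Ccnd1 with FoxD3-VP16 read 9.72 on array 2, with the nearest of the others at 10.65, and with empty vector it read 10.58 on array 2, with the nearest at 11.43. Both low values carry the same number, and Ccnd1 was called higher with FoxD3 than with empty vector with either array left out. Ccne1 with FoxD3-VP16 read 11.83 on array 1, with the nearest at 9.86. Ccne2 with FoxD3 read 7.79 on array 2, with the nearest at 8.87.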

How the results depend on the processing

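Of 630 values (30 gene changes under 21 alternatives), 556 kept direction and call, 36 passed the threshold newly, 19 no longer passed it, and 19 uncalled values changed sign. No called change turned round. The most calls came with array quality weights: 4193 genes (main value 438) for FoxD3 minus empty vector, 3465 (65) for FoxD3-VP16 minus empty vector and 4455 (1045) for FoxD3-VP16 minus FoxD3, with 9, 5 and 7 of the 10 genes studied. With the replicate block the counts over all genes were 2297, 1217 and 3498, with 6 and 4 of the 10 genes in the comparisons with empty vector. Without the 3 arrays numbered 1 they were 870, 277 and 1815. Leaving out 1 array gave 197 (without FoxD3 array 4) to 555 genes, 13 (without FoxD3-VP16 array 4) to 82, and 602 (without FoxD3 array 4) to 1214, and 1 to 3, 0 to 2 and 2 to 5 of the 10 genes. Other moved counts of the 10 genes were 2 with a pseudocount of 1 and 2 without _x_at probe sets (FoxD3 minus empty vector), and 0 with the mean of all probe sets (FoxD3-VP16 minus empty vector). Alternatives with the block kept were added after the data were seen: without 1 array they gave 2 to 6 genes for FoxD3 and 2 to 5 for FoxD3-VP16, each minus empty vector. With the block kept, Cdkn1a lost its call for FoxD3-VP16 minus empty vector under 11 of 20 alternatives and for FoxD3 minus empty vector under 7. Cdkn1b lost it for FoxD3 minus empty vector under 6, Cdkn2c under 5 (FoxD3) and 4 (FoxD3-VP16), Cables1 for FoxD3 under 2, and Cdkn1b between FoxD3-VP16 and FoxD3 under 1. The cause of these shifts was not tested. Dim signals limit Cdkn1c, Cables1 with empty vector, Cdkn2a and Cdkn2b.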
